A study of Homo sapiens with 40 samples.

Results

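TNF (gene ID 7124) and LTA (gene ID 4049) encode tumour necrosis factor and lymphotoxin alpha, 2 cytokines of the TNF family. They were followed in OCI-Ly3 and OCI-Ly10, established human lines of diffuse large B cell lymphoma, of its activated B cell-like class. The members were the array probes whose single gene symbol in the platform annotation is TNF or LTA. Of 10169 probes with 1 symbol, 5 carried TNF (17500_1, 24423_1, 25238_1, 28018_1 and 35061_1) and 2 carried LTA (25205_1 and 35085_1), and these gave 2 of the 4604 genes measured. RNA was measured on 40 spotted 2-colour arrays, each with treated cells in Cy5 and, in Cy3, control cells of that line, left untreated or given a mock treatment. OCI-Ly3 iIkBsr cells, transfected with an inducible IκB super-repressor, received doxycycline at 20 ng/ml for 1, 1.5, 2, 3, 4 or 6 h (9 arrays) against iIkBsr control cells. OCI-Ly10 cells with the same construct received doxycycline at 20 ng/ml for 1.5, 3, 6 or 24 h (4 arrays). OCI-Ly10 cells received IL-6 at 50 ng/ml for 0.5, 1, 3, 6 or 24 h (8 arrays). OCI-Ly3 cells received IL-10 at 50 ng/ml for 1, 3, 6, 24, 48 or 96 h (10 arrays). OCI-Ly10 cells were electroporated with a STAT3 siRNA SMARTpool at 4 uM, against no siRNA, for 8, 24 or 48 h (5 arrays). OCI-Ly10 cells received JAK inhibitor I at 5 uM for 3 or 6 h (4 arrays). Neither a non-targeting siRNA nor doxycycline without the construct was among the controls, and the labels do not say whether a construct line is 1 clone.

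TNF is made as a membrane protein, shed by the protease ADAM17, and binds the receptors encoded by TNFRSF1A and TNFRSF1B. LTA is secreted as a trimer that binds the same receptors, or is held at the cell surface in a complex with lymphotoxin beta, the product of LTB, which binds the receptor encoded by LTBR. Both genes are textbook targets of NF-κB in lymphocytes, and signalling through TNF receptors in turn activates NF-κB. IL-10 is known in macrophages for lowering TNF by way of STAT3.

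The genes lie side by side in the class III part of the major histocompatibility complex on chromosome 6 (RefSeq, GRCh38.p14). LTA spans 31560610 to 31574324 and TNF spans 31575565 to 31578336, so 1240 bases separate them, and LTB lies 2221 bases beyond TNF. The promoters of both genes are printed because both genes fell with IL-10 and with the super-repressor in OCI-Ly3. Each runs from 250 bases before to 50 after the RefSeq start, plus strand, 5′ to 3′. The windows are chr6:31575315-31575614 for TNF and chr6:31572039-31572338 for the downstream of 2 LTA starts with a listed window. The LTA span begins upstream of both of these starts, and no window was searched there. Capitals mark matches to the NF-κB consensus, the STAT consensus TTCNNNGAA, the AP-1 consensus TGANTCA (these 3 on both strands) and TATAAA on the printed strand.
TNF: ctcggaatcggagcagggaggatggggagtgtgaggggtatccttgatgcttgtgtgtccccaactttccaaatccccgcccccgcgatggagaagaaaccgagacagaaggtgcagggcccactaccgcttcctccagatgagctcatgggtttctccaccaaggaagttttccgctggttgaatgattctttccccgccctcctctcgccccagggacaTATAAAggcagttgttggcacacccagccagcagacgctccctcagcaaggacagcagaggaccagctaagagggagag
LTA: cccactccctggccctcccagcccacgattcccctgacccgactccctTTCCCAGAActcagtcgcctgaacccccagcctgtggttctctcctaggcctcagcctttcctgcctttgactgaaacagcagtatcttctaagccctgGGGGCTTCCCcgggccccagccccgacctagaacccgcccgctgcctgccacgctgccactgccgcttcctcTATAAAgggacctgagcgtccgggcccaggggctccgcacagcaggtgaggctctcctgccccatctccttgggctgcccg

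The TNF window held TATAAA, starting at position -29 from the gene start, and none of the other 3 motifs. The LTA window held TATAAA at -31, an NF-κB consensus match (GGGGCTTCCC) at -103 and a STAT consensus match (TTCCCAGAA) at -202. The window of the other listed LTA start (chr6:31571849-31572148) shares this last match and held another (TTCAGGGAA) at -151. No 2 of the marked matches overlap. Of 35116 RefSeq promoter windows, 5.91% held the NF-κB consensus, 7.66% the STAT consensus, 7.71% the AP-1 consensus and 7.33% TATAAA. A match is a string of letters in this window and not a measured binding site.

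Every value below is a log2 ratio of treated over control cells (the base of the deposited log is not stated and was read as 2), after each array was centred on its median. A negative value therefore means less RNA signal in treated than in control cells. The files hold ratios without levels or channel intensities, so the abundance of TNF or LTA, signal over background and the cell type of each line could not be checked from marker levels. The gene value is the mean of the probes measured on an array. Means over a set of times carry the standard error (SE) of a limma fit, and adjusted p-values are limma's with Benjamini-Hochberg adjustment over all genes tested, with a threshold of 0.05. Whether replicates came from separate cultures is not in the labels, and p-values cover the spread between these arrays, which may be technical. How control RNA varies does not enter a test of ratios against 0, and without a dye swap any dye bias of a probe remains. Replicates lay in different runs of consecutive array numbers, of which there were 12. The targeted genes checked the labels. STAT3 was at -1.59 ± 0.17 with its siRNA (below 0 on 4 of 4 arrays), and NFKBIA, an NF-κB target that the construct could also add to, was at -1.61 ± 0.10 in OCI-Ly3 (7 of 7) and -1.03 ± 0.15 in OCI-Ly10 (3 of 3) with the super-repressor.

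IL-10 gave TNF its lowest values of the 6 experiments. TNF stood at -0.42 and -0.59 (1 h), -0.39 and -0.77 (3 h), and -1.34 and -1.59 (6 h). It was at -2.30 and -2.12 at 24 h, -2.05 on the single 48 h array and -2.45 on the single 96 h array. All 10 arrays were below 0, and every array from 6 h on was lower than every array at 1 and 3 h. Over 1 to 96 h TNF fell by 1.54 ± 0.05 (adjusted p = 5.56e-14, n = 10 arrays), which is 2.91-fold lower than in control cells. It had the lowest mean of 4383 genes tested, of which 35.3% passed in either direction. The mean of 24, 48 and 96 h minus that of 1, 3 and 6 h was -1.38 ± 0.10 (adjusted p = 3.10e-08, 13.5% of genes called). In the run that held 1 replicate of 1, 3, 6 and 24 h TNF averaged -1.11, and in the run that held the other replicate it averaged -1.27.

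LTA was also low with IL-10, but its arrays were less alike. It was at -0.49 and -0.21 at 1 h, at -1.01 on the 1 array measured at 3 h, and at -0.70 and -0.09 at 6 h. At 24 h the replicates stood at -0.56 and -2.64, and the single arrays at 48 and 96 h stood at -1.91 and -3.12. All 9 measured arrays were below 0, and the gap between the 24 h replicates was wider than the whole range of the arrays at 1 to 6 h. Over 1 to 96 h LTA fell by 1.40 ± 0.16 (adjusted p = 3.13e-06), the second lowest mean after TNF. Nearly all of this came from probe 35085_1, since 25205_1 was measured on 1 of the 10 arrays, at 0.11. The mean of the later minus the earlier times was -1.62 ± 0.33 (adjusted p = 0.00223). That difference missed the threshold without the 96 h array (-1.17, adjusted p = 0.0587) and in a fit on the IL-10 arrays alone (adjusted p = 0.0993). Within the same pair of runs LTA averaged -0.58 (3 arrays) and -0.99 (4 arrays).

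**Figure D1:**
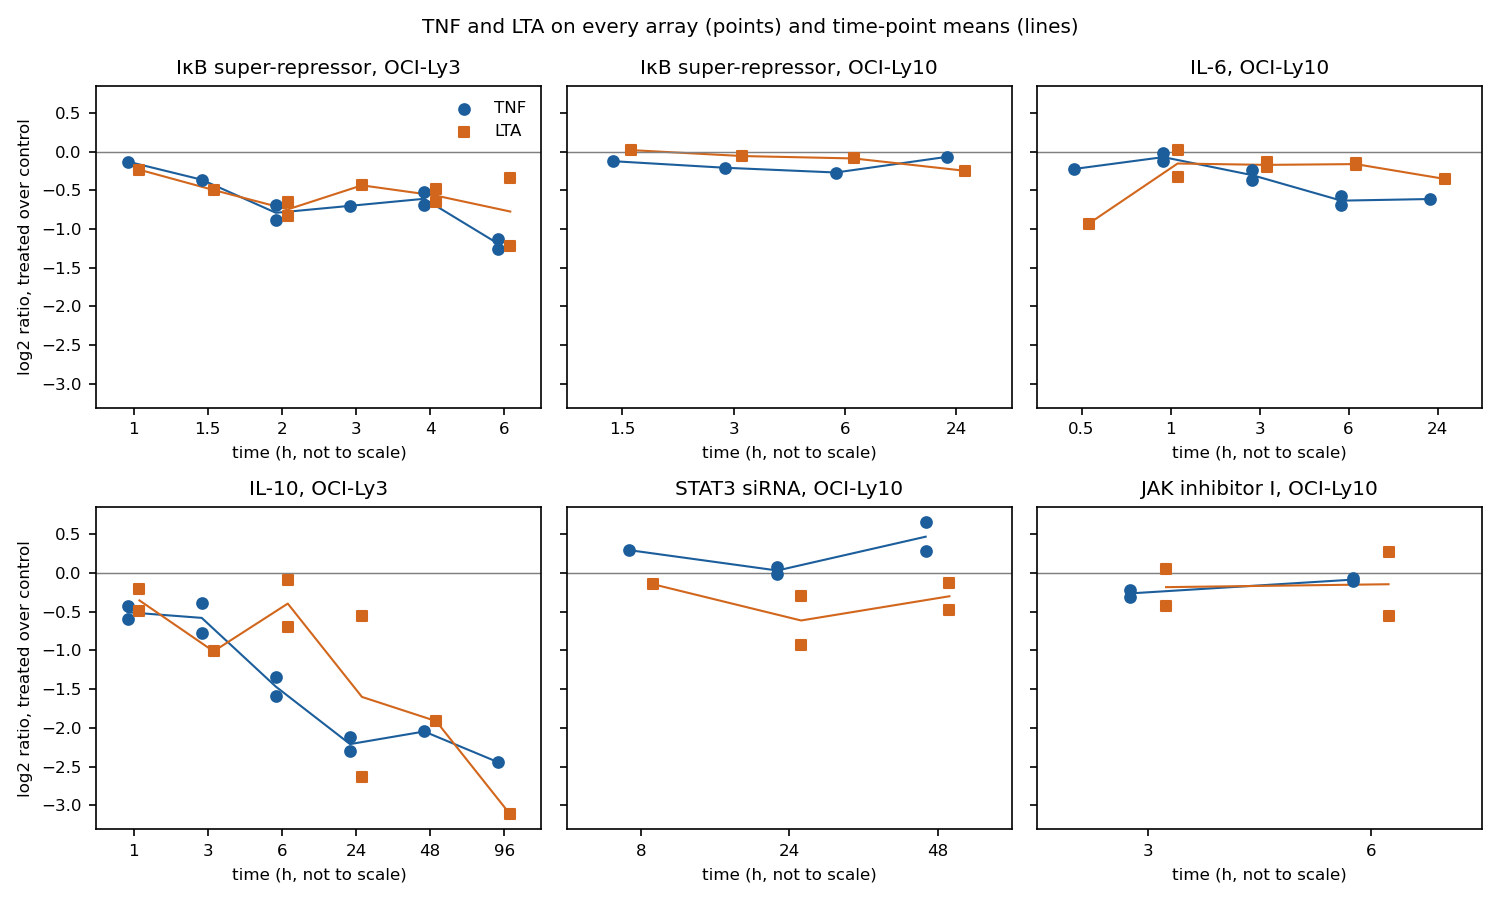
Each panel is 1 experiment, with time in hours on the x axis (categories, not to scale) and the log2 ratio of treated over control cells on the y axis. Points are the gene value on each array, circles for TNF and squares for LTA, and lines join time-point means. With IL-10 all TNF points from 6 h on lie at -1.34 or lower, while in OCI-Ly10 with the super-repressor no TNF point is below -0.27.

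The super-repressor is a form of IκB alpha that resists degradation and so holds NF-κB inactive. In OCI-Ly3, TNF was at -0.13 at 1 h and -0.36 at 1.5 h, on 1 array each. The 2 h arrays then gave -0.89 and -0.69, the 3 h array -0.70, the 4 h arrays -0.69 and -0.53, and the 6 h arrays -1.13 and -1.26. Both 6 h arrays were below all others, and the arrays at 1 and 1.5 h were above all others. Over 2 to 6 h TNF fell by 0.82 ± 0.06 (adjusted p = 1.16e-07, below 0 on 7 of 7 arrays), which is 1.77-fold lower, and only 3 of 4390 genes had a lower mean. Of those genes 14% passed in either direction. The mean of 4 and 6 h minus the mean of 1, 1.5 and 2 h was -0.47 ± 0.11 and missed the threshold (adjusted p = 0.0709, 0.543% of genes called). It passed with the run as a random block (adjusted p = 0.0178). The 2 runs of this experiment each averaged -0.71 for TNF over all their times.

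LTA in the same cells gave -0.23 (1 h), -0.50 (1.5 h), -0.84 and -0.66 (2 h), and -0.44 (3 h). It was at -0.66 and -0.48 at 4 h and at -1.21 and -0.34 at 6 h. All 9 arrays were below 0, with no time point clearly apart from the next. Over 2 to 6 h LTA fell by 0.63 ± 0.18 (adjusted p = 0.0298, 7 of 7 arrays), the 14th lowest mean. The call rests on few arrays and on 1 probe. It was lost without the second 2 h replicate (adjusted p = 0.0709), without either 4 h replicate (adjusted p = 0.0686 and 0.068) or without the first 6 h replicate (adjusted p = 0.122), and with the run as a random block (-0.66, adjusted p = 0.161) or a mean-variance trend (adjusted p = 0.0664). That trend was on each gene's mean log ratio over all arrays, not on intensity. Probe 35085_1 alone was at -0.89 ± 0.18 (adjusted p = 0.00581 over probes), and 25205_1 alone at -0.21 ± 0.09 (adjusted p = 0.139). The first 6 h array had no value for 25205_1, while on the second 6 h array it stood at 0.15 and 35085_1 at -0.82. The 2 runs averaged -0.74 and -0.48.

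In OCI-Ly10 the super-repressor gave small values. With 1 array each, TNF stood at -0.12 (1.5 h), -0.21 (3 h), -0.27 (6 h) and -0.067 (24 h). LTA was at 0.019, -0.058, -0.089 and -0.25 in the same order. Over 3 to 24 h TNF averaged -0.18 ± 0.09 (adjusted p = 0.794, 3 of 3 arrays below 0) and LTA -0.13 ± 0.27 (adjusted p = 0.998). In this experiment 0.532% of genes passed. The direct comparison of the lines at 1.5, 3 and 6 h, OCI-Ly3 minus OCI-Ly10, gave -0.55 for TNF with a 95% interval of -0.81 to -0.30. No TNF array of OCI-Ly3 at 1.5, 3 or 6 h overlapped those of OCI-Ly10. TNF had the smallest unadjusted p of all 4384 genes (0.000237), but its limma-adjusted p was 0.994 and 0% of genes passed (0 called, 108 at an unadjusted p under 0.05). With array weights, TNF passed (-0.55, adjusted p = 0.000541). These weights were estimated around 1 mean per experiment, so change over time counted as spread of an array. The share of all genes that passed with weights was not counted for this comparison. LTA differed by -0.53, with an interval of -1.29 to 0.23. The arrays of the 2 construct lines lay in different runs, so line, action of the construct in each line and run cannot be told apart.

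**Figure D2:**
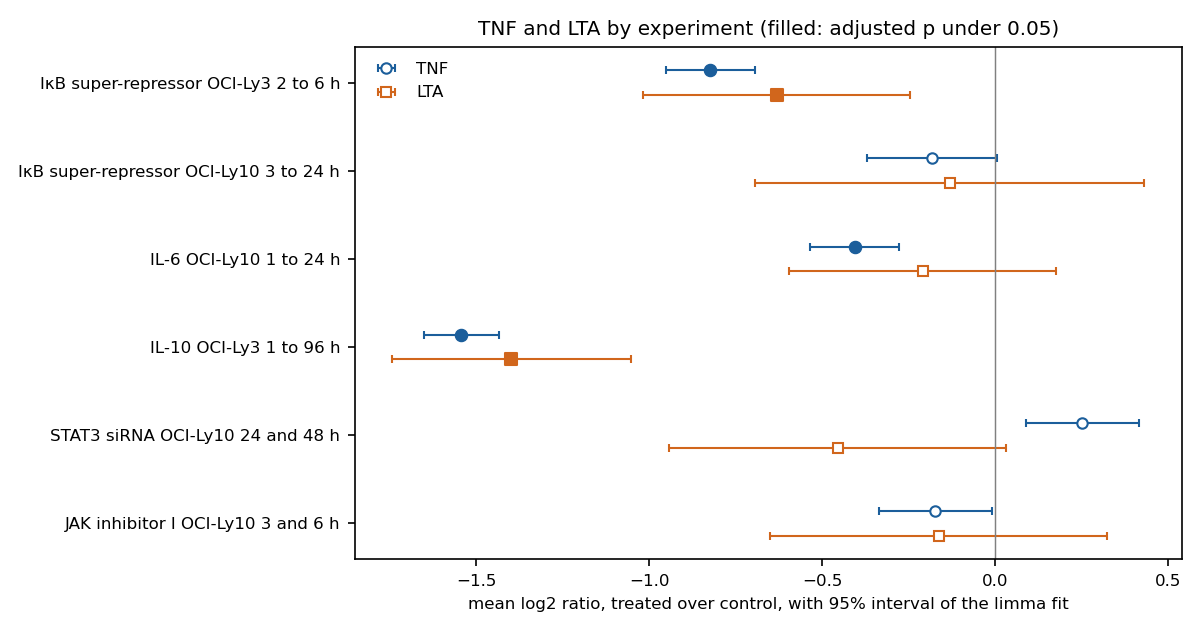
The mean log2 ratio of treated over control cells (x axis) over the tested times of each experiment (rows), for TNF (circles, upper of each pair) and LTA (squares), with 95% intervals from the limma fit. Filled symbols passed an adjusted p of 0.05, which are TNF in 3 rows and LTA in 2, and the LTA intervals are wider than those of TNF in every row.

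IL-6 activates STAT3 through its own receptor. In OCI-Ly10, TNF was at -0.22 at 0.5 h (1 array), -0.12 and -0.018 at 1 h, and -0.37 and -0.24 at 3 h. It was at -0.57 and -0.70 at 6 h and -0.61 on the single 24 h array. All 8 arrays were below 0, and the arrays at 6 and 24 h did not overlap the earlier ones. Over 1 to 24 h TNF fell by 0.41 ± 0.06 (adjusted p = 0.000722, 7 of 7 arrays), which is 1.32-fold lower and the 17th lowest mean of 3301 genes. Of those genes 4.54% passed (150), or 314 genes with the replicate number as a block. The call was lost in a fit with robust settings and a variance trend on the mean log ratio, not on intensity (adjusted p = 0.155). It was also lost by probe 25238_1 alone (-0.20, adjusted p = 0.207). The mean of 6 and 24 h minus the mean of 0.5 and 1 h was -0.48 ± 0.13 for TNF (adjusted p = 0.191, 0.378% of genes called). The 2 runs averaged -0.32 and -0.38.

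LTA with IL-6 was at -0.93 on the single 0.5 h array, where probe 35085_1 alone had a value. It was at -0.33 and 0.024 at 1 h, -0.14 and -0.20 at 3 h, -0.15 and -0.18 at 6 h, and -0.35 at 24 h. After 0.5 h no array was lower than -0.35. Over 1 to 24 h LTA averaged -0.21 ± 0.18 (adjusted p = 0.531, 6 of 7 arrays below 0), and the later minus the earlier times gave 0.29 ± 0.40 (adjusted p = 0.976). That difference in part sets one probe against the other.

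At the times both cytokines shared (1, 3, 6 and 24 h), IL-10 in OCI-Ly3 minus IL-6 in OCI-Ly10 gave -0.79 ± 0.08 for TNF (adjusted p = 9.82e-06), where 9.5% of genes passed. Without the single 24 h IL-6 array, and so at 1, 3 and 6 h, it was -0.51 (adjusted p = 0.00153). By probe 24423_1 alone this difference was -0.24 and missed the threshold (adjusted p = 0.22). For LTA it was -0.63 ± 0.26 (adjusted p = 0.141), and it passed only without the first 24 h IL-10 replicate (-0.89, adjusted p = 0.0054). Cytokine and line cannot be told apart in these differences. The LTA difference also sets unlike probes against each other. With IL-10 it rests almost wholly on 35085_1, while with IL-6 25205_1 enters as well, alone at 24 h. Neither LTA probe alone had the values needed to test it. Within OCI-Ly3 at 1, 3 and 6 h, IL-10 minus the super-repressor gave -0.18 for TNF (interval -0.39 to 0.040, adjusted p = 0.446) and -0.10 for LTA (interval -0.79 to 0.58, adjusted p = 0.907), with 3.53% of genes called. Neither gene was thus shown to differ between these treatments up to 6 h.

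STAT3 siRNA was the one treatment with a TNF mean above 0. TNF was at 0.30 at 8 h (1 array), 0.079 and -0.012 at 24 h, and 0.66 and 0.28 at 48 h. The 48 h arrays were above those at 24 h. Over 24 and 48 h TNF averaged 0.25 ± 0.08 and missed the threshold (adjusted p = 0.0775, above 0 on 3 of 4 arrays), in an experiment where 3.31% of genes passed. The probes differed here. On the 48 h arrays 17500_1 was at 0.71 and 0.78, 25238_1 at 1.03 and 0.45, 35061_1 at 0.71 and 0.51, and 28018_1 at 0.19 and 0.14. Of the 48 h arrays, probe 24423_1 was measured on the second only, at -0.46, while the other 4 probes were above 0 on both. At 8 h 24423_1 was at 0.18. TNF passed with the median of the probes (0.32, adjusted p = 0.0287), with array weights (0.34, adjusted p = 0.00165) and without 24423_1 (0.30, adjusted p = 0.035), the last an alternative chosen after seeing the data.

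LTA with STAT3 siRNA stood at -0.14 (8 h), -0.30 and -0.93 (24 h), and -0.12 and -0.48 (48 h), all from probe 35085_1. All 5 arrays were below 0. Over 24 and 48 h LTA averaged -0.46 ± 0.23 (adjusted p = 0.273, interval -0.94 to 0.031). The run with the second replicates averaged -0.70 and the other, which also held 8 h, -0.19.

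JAK inhibitor I blocks the kinases upstream of STAT3. In OCI-Ly10, TNF was at -0.22 and -0.31 at 3 h and at -0.070 and -0.099 at 6 h. All 4 arrays were below 0, with the 6 h arrays nearer to 0 than the 3 h arrays. TNF averaged -0.17 ± 0.08 (adjusted p = 0.272) and 3.26% of genes passed. LTA was at 0.059 and -0.42 at 3 h and at 0.27 and -0.56 at 6 h. It averaged -0.16 ± 0.23 (adjusted p = 0.813), and its sign followed the run, at 0.17 in the run of the first replicates and -0.49 in the run of the second. At 3 and 6 h the inhibitor minus IL-6 gave 0.30 ± 0.11 for TNF (adjusted p = 0.212, 2.17% of genes called) and 0.0039 ± 0.33 for LTA. The inhibitor minus the super-repressor in OCI-Ly10 gave 0.066 ± 0.13 for TNF and -0.090 ± 0.40 for LTA (adjusted p = 0.999 for each, 0.316% of genes called).

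By mean, the order for TNF from lowest to highest was IL-10 in OCI-Ly3, the super-repressor in OCI-Ly3, IL-6, the super-repressor in OCI-Ly10, JAK inhibitor I and STAT3 siRNA. The 95% intervals of IL-6, the super-repressor in OCI-Ly10 and the inhibitor all overlapped one another. For LTA the order was IL-10, the super-repressor in OCI-Ly3, STAT3 siRNA, IL-6, the inhibitor and the super-repressor in OCI-Ly10. The last 5 had intervals that overlapped. At the times shared in OCI-Ly3 (1, 3 and 6 h), neither gene was shown to differ between IL-10 and the super-repressor.

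The 5 TNF probes followed each other, with 24423_1 the least alike. Outside the IL-10 experiment, 17500_1 and 25238_1 correlated at r = 0.94 over 28 arrays, 17500_1 and 35061_1 at r = 0.90 over 27, and 17500_1 and 28018_1 at r = 0.80 over 29. With 24423_1 the r of 17500_1 was 0.54 over 21 arrays. Over 1 to 96 h of IL-10 the probes were at -1.94 (17500_1), -1.75 (25238_1), -1.65 (35061_1), -1.50 (28018_1) and -0.88 (24423_1), each below 0 on 10 of 10 arrays. At 24 h 24423_1 was at -1.32 and -0.86, against -2.23 to -2.73 for the other 4 probes. The 2 LTA probes did not follow each other, at r = 0.11 over 17 arrays. Probe 35085_1 correlated with 17500_1 of TNF at r = 0.64 outside IL-10 (27 arrays), and 25205_1 at r = 0.016 (17 arrays). These correlations describe arrays that share treatments and have no p. Probe sequences were not used here, so what each probe detects could not be compared.

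**Figure D3:**
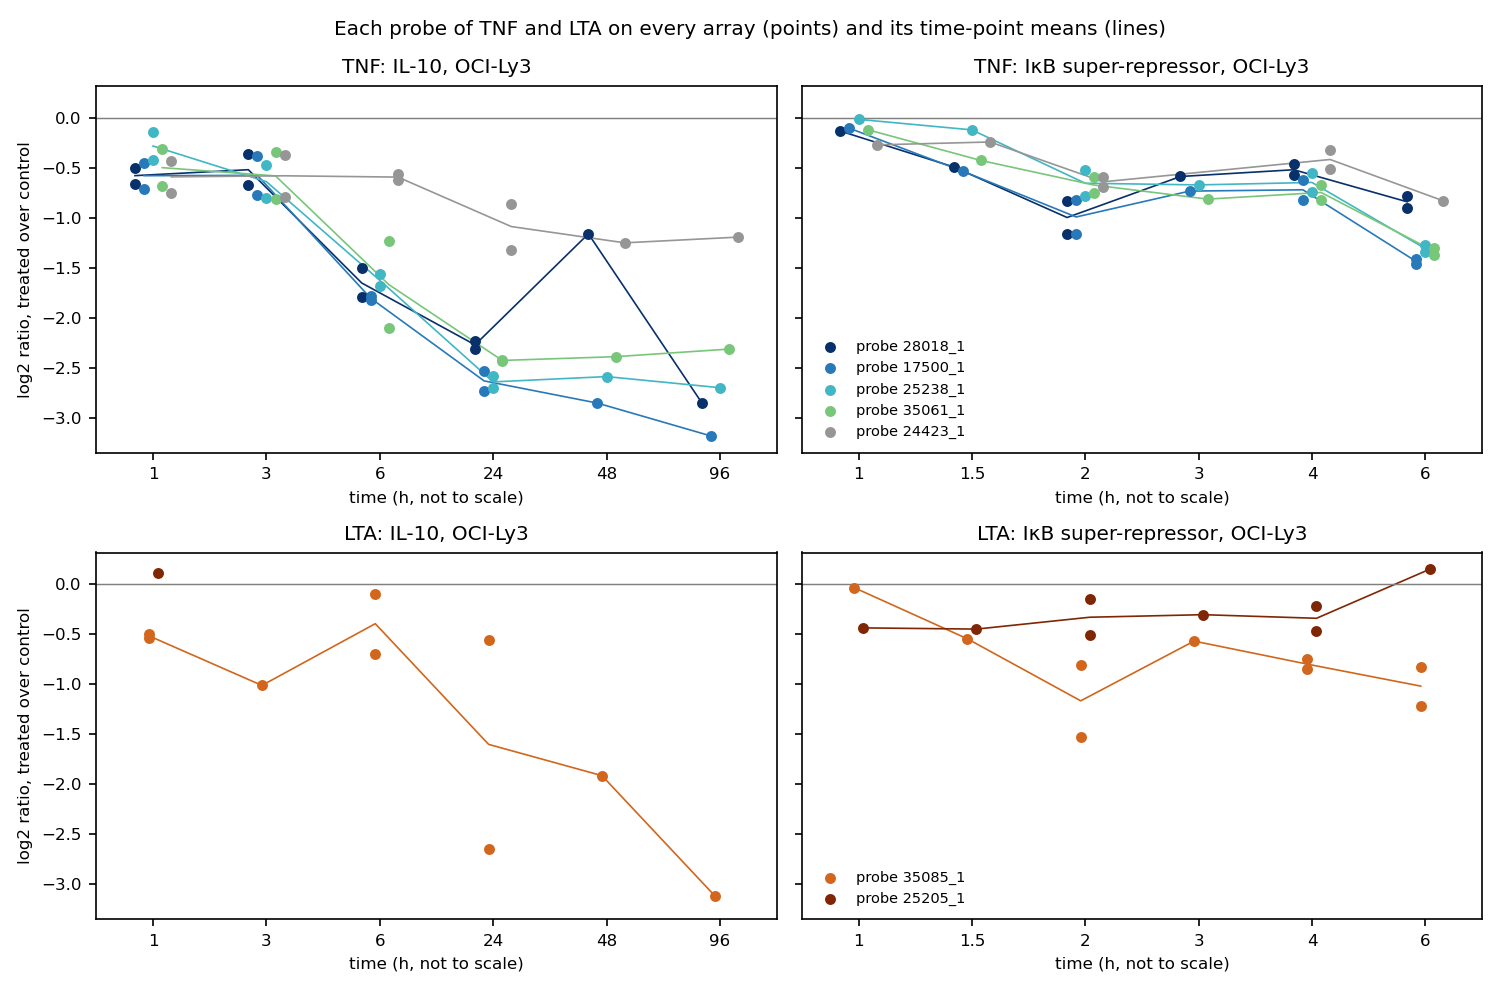
The log2 ratio of treated over control cells (y axis) by time in hours (x axis, categories) for each probe on each array (points) and its time-point means (lines), TNF above and LTA below, IL-10 on the left and the super-repressor on the right, both in OCI-Ly3. TNF probe 24423_1 (grey) stays at -1.32 or higher with IL-10, and LTA probe 25205_1 has 1 point with IL-10 and stays between -0.51 and 0.15 with the super-repressor.

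TNF and LTA were compared on the same arrays in the 3 experiments with at least 6 arrays for both genes. TNF minus LTA averaged -0.11 ± 0.32 (SD) with the super-repressor in OCI-Ly3 (9 arrays), -0.075 ± 0.39 with IL-6 (8 arrays) and -0.32 ± 0.85 with IL-10 (9 arrays). TNF was the lower on 6, 6 and 5 of these arrays, and 2-sided exact sign-flip permutation tests gave an adjusted p of 0.578 in each. Across arrays, Pearson's r between the genes was 0.51 with the super-repressor (exact permutation p = 0.16, adjusted 0.24) and 0.64 with IL-10 (exact permutation p = 0.0641, adjusted 0.192). With IL-6 it was -0.068 (exact permutation p = 0.904, adjusted 0.904). Spearman's rho was 0.33 (exact permutation p = 0.385, adjusted 0.578), 0.60 (exact permutation p = 0.0968, adjusted 0.29) and 0.095 (exact permutation p = 0.84, adjusted 0.84) in the same order. Without the 2 arrays farthest from the median of TNF, r was 0.89 (7 arrays), 0.54 (7) and -0.038 (6). With the super-repressor r was 0.91 (adjusted exact permutation p = 0.00699) without the second 6 h replicate. Over the 10 alternatives run for it r ranged from 0.29 to 0.91, and no other passed. Arrays of an experiment are time points and replicates of one course, so they are not fully independent. With IL-6 the LTA value came from 35085_1 alone at 0.5 h and from 25205_1 alone on the second 6 h array and at 24 h. The comparisons of TNF with LTA there thus in part set one LTA probe against the other.

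LTB, the next gene beyond TNF and the partner of LTA, had means nearer to 0 than those of TNF and LTA in all 6 experiments. LTB fell by 0.27 ± 0.05 with IL-10 (adjusted p = 0.000723, 9 of 10 arrays). It was at 0.0013 ± 0.06 with the super-repressor in OCI-Ly3, -0.050 in OCI-Ly10, -0.12 with IL-6, -0.064 with STAT3 siRNA and 0.075 with the inhibitor, and passed in none of these. Of 13 measured neighbours in the class III region, leaving out TNF and LTA, 5 rose and 3 fell with IL-10, where 35.3% of all genes passed in either direction, and 2 rose and 2 fell with the super-repressor in OCI-Ly3, where 14% passed. The heat shock gene HSPA1L fell by 0.30 with IL-10, and CSNK2B, a casein kinase subunit, rose by 0.30 with the super-repressor. With STAT3 siRNA 1 of 13 passed, LST1, a leukocyte-specific transcript, which fell by 0.74 ± 0.13 (adjusted p = 0.00562, 4 of 4 arrays), beside 3.31% of all genes. In a limma fit on the siRNA arrays alone LST1 missed the threshold (adjusted p = 0.305), as did every other gene (0 called, 619 at an unadjusted p under 0.05). None passed with the super-repressor in OCI-Ly10, with IL-6 or with the inhibitor.

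Of 10 other ligands of the family, none passed with the super-repressor in either line, with STAT3 siRNA or with the inhibitor, and with IL-6 none of the 4 tested passed. With IL-10, 1 rose and 2 fell, beside 35.3% of all genes called. CD70, the ligand of CD27, rose by 0.57 (adjusted p = 8.68e-05, above 0 on 8 of 9 arrays), and LTB and TNFSF11, the RANK ligand, which fell by 0.27, were the others (CD70 and TNFSF11 were named after their values were seen). The median of the ligands was -0.067 with IL-10 and -0.12 with the super-repressor in OCI-Ly3, beside -0.019 and -0.025 for all genes tested.

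Of the receptors TNFRSF1A, TNFRSF1B, TNFRSF14 and LTBR, LTBR alone passed in any experiment. TNFRSF1A was at -0.17 ± 0.10 with IL-10 (adjusted p = 0.213) and 0.18 ± 0.12 with the super-repressor in OCI-Ly3 (adjusted p = 0.321), and TNFRSF1B at -0.13 in each. TNFRSF14, which also binds LTA, was at -0.016 and -0.16. LTBR, the lymphotoxin beta receptor, fell by 0.20 ± 0.06 with the super-repressor in OCI-Ly3 (adjusted p = 0.0249, 6 of 7 arrays) and was at 0.11 with IL-10. In a fit on the arrays of that experiment alone its call was lost (adjusted p = 0.0851). Of 21 receptors of the family, 2 rose and 2 fell with the super-repressor in OCI-Ly3, beside 14% of all genes called, and 2 rose and 6 fell with IL-10, beside 35.3%, so both counts lie near the share of all genes. On each experiment's own arrays 1 of those that rose and 0 of those that fell with the super-repressor passed, and 1 and 2 with IL-10. TNFRSF17, the plasma cell receptor BCMA, rose by 0.63 ± 0.07 with the super-repressor in OCI-Ly3 (7 of 7 arrays) and by 0.51 ± 0.11 in OCI-Ly10 (3 of 3), where it was the 1 of 20 that passed. No receptor passed with IL-6 (13 tested), STAT3 siRNA (21) or the inhibitor (21).

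Downstream of the receptors, 3 of 20 signalling genes fell and none rose with the super-repressor in OCI-Ly3, a count near the 14% of all genes called there. TNFAIP3, which encodes the feedback deubiquitinase A20, fell by 1.19 ± 0.10 and TRAF1, an adaptor, by 0.43 ± 0.05, each on 7 of 7 arrays. In OCI-Ly10, 2 of 19 fell, TNFAIP3 by 0.92 ± 0.14 and CFLAR, an inhibitor of caspase 8, by 0.69 ± 0.12, beside 0.532% of all genes called. With IL-10, 6 of 19 rose and 2 fell, near the 35.3% of all genes called (4 of the 6 and 1 of the 2 passed on the IL-10 arrays alone). TNFAIP3 and BIRC2, an E3 ligase of the receptor complex, rose by 0.47 ± 0.08 and 0.94 ± 0.06, each above 0 on 10 of 10 arrays. TNFAIP3 thus fell with the super-repressor and rose with IL-10 in OCI-Ly3, whereas TNF fell with both. None passed with IL-6 (15 tested), STAT3 siRNA (19) or the inhibitor (20).

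Among 14 genes of TNF shedding and of its mRNA and translation control, ZFP36, which encodes tristetraprolin, a protein that destabilises TNF mRNA, rose in 2 experiments. It rose by 0.92 ± 0.05 with IL-10 (adjusted p = 9.38e-11, 10 of 10 arrays) and by 0.41 ± 0.06 with the super-repressor in OCI-Ly3 (adjusted p = 0.000437, 7 of 7). It was at 0.11 ± 0.06 with IL-6 (adjusted p = 0.326), 0.23 ± 0.09 with the super-repressor in OCI-Ly10 (adjusted p = 0.577), 0.047 with STAT3 siRNA and -0.15 with the inhibitor. The later minus the earlier times of ZFP36 gave 0.090 ± 0.10 with IL-10 (adjusted p = 0.671), where TNF gave -1.38, and 0.35 ± 0.11 with the super-repressor in OCI-Ly3 (adjusted p = 0.396). With IL-6 this difference was -0.75 ± 0.14 for ZFP36 (adjusted p = 0.0106), beside -0.48 for TNF, which missed the threshold. Its relative ZFP36L1 fell by 0.63 ± 0.06 with the super-repressor in OCI-Ly3, as did MAP3K8, a kinase that promotes TNF production, by 0.69 ± 0.07, and TIMP3, an inhibitor of ADAM17, by 0.34 ± 0.08. In all 2 rose and 3 fell in that experiment (14% of all genes called), and 1 rose and 4 fell with IL-10, near the 35.3% of all genes called. None passed in the other 4 experiments. The part of ZFP36 in the values of TNF was not tested.

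The other NF-κB targets set the members against their pathway. Of 40 tested, 23 fell and 1 rose with the super-repressor in OCI-Ly3 (median -0.27 beside -0.025 for all genes), where 14% of all genes passed. In OCI-Ly10, 10 of 40 fell and 1 rose (median -0.18 beside -0.0078), where 0.532% passed. TNF and LTA are not among these counts. The lists of this report share genes, among them TNFAIP3, CCL22, CCL3 and CCL4, so counts of different lists are not separate evidence. In OCI-Ly10 NFKBIA and TNFAIP3 fell, and CXCL10, an interferon-inducible chemokine, fell by 1.22 ± 0.13, while TNF and LTA did not pass. With IL-10, 11 of 41 fell and 13 rose (median 0.065 beside -0.019), where 35.3% of all genes passed. Those that fell included CCL22, a chemokine for T cells (-1.14 ± 0.09), and those that rose included BCL3, a nuclear IκB family member, by 1.64 ± 0.06, and SOD2, a mitochondrial superoxide dismutase, by 1.15 ± 0.10, each with 1 sign on 10 of 10 arrays. With IL-6, 2 of 37 fell and 3 rose, with BCL3 at 0.79 ± 0.07 and JUNB, an AP-1 subunit, at 0.36 ± 0.05 (median of the list 0.038 beside -0.0089, 4.54% of all genes called). With STAT3 siRNA 2 of 40 rose, CCL3 and CCL4, and none fell (median 0.071 beside -0.0115, 3.31% of all genes called). Neither passed on the siRNA arrays alone. With the inhibitor 6 of 40 fell and none rose (median -0.11 beside 0.0002, 3.26% of all genes called), of which 2 passed on the inhibitor arrays alone.

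Of 31 other cytokine and chemokine genes tested, 7 fell and none rose with the super-repressor in OCI-Ly3, IL6 by 0.53 ± 0.12 and CCL22 by 0.41 ± 0.11 among them, where 14% of all genes passed. With IL-10, 4 of 29 fell and 7 rose, near the 35.3% of all genes called, with CXCL9, a chemokine, at 3.00 ± 0.11 and IL10 itself at 0.78 ± 0.10. With STAT3 siRNA the 2 of 29 that passed were CCL4 (0.80 ± 0.10) and CCL3 (0.48 ± 0.11), chemokines of activated B cells and macrophages, both above 0 on 4 of 4 arrays, beside 3.31% of all genes. On the siRNA arrays alone neither passed (adjusted p = 0.16 for CCL4 and 0.305 for CCL3). With the inhibitor 3 of 29 fell, among them CCL4 by 0.80 ± 0.10 and IL12A, a subunit of IL-12, by 0.39 ± 0.09, each on 4 of 4 arrays, beside 3.26% of all genes. On the inhibitor arrays alone none of the 3 passed (adjusted p = 0.0714 for CCL4 and 0.118 for IL12A). With IL-6, 2 of 23 fell and 1 rose (4.54% of all genes called), and with the super-repressor in OCI-Ly10, 1 of 30 fell (CXCL10) and 1 rose, CCL4, by 0.82 ± 0.12 (0.532% of all genes called).

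Markers of T, NK and myeloid cells were counted in the same way, although the cells were established lymphoma lines and not mixed samples. Of 19 T and NK cell markers, 2 fell with the super-repressor in OCI-Ly3 (medians -0.10 beside -0.025 for all genes, 14% of all genes called). With IL-10, 2 rose and 2 fell (0.010 beside -0.019, 35.3% of all genes called), and none passed in the other 4 experiments. Of these calls, 1 that fell with IL-10 passed on its experiment's own arrays. Of the myeloid markers, 2 of 6 rose and 1 fell with IL-10, CD14 by 0.60 ± 0.09 upward and FCGR3A by 0.28 ± 0.09 downward (35.3% of all genes called), and none passed elsewhere. Ratios give no level, and the part of these markers in the results was not tested. Less TNF RNA per cell cannot be told apart from fewer cells of the line that make it.

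The genes most like TNF over the 26 experiment and time means, among 3058 genes measured in all 26, were ETV4, an ETS factor (r = 0.92), CD82, a tetraspanin (0.92), and CD83, a marker of activated B and dendritic cells (0.90). WNT10A (0.89), FCRL2, an Fc receptor-like protein of B cells (0.89), and PTGS1, the cyclooxygenase COX-1 (0.89), followed. LTA stood 15th with r = 0.82. Over the 20 means outside IL-10, r with TNF was 0.78 for CD83, 0.74 for ETV4, 0.46 for LTA and 0.52 to 0.65 for the other 4. By Spearman's rho CD83 stood second with 0.79, after EHD1 (0.82), an endocytic recycling protein. The lowest r were those of ZNF107 (-0.94), AIM2, a sensor of cytosolic DNA (-0.93), and DHRS9, a retinol dehydrogenase (-0.92).

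The genes most like LTA were MACROD2 (r = 0.87), ETV4 (0.86), TBC1D1 (0.86), SPRED2, an inhibitor of ERK signalling (0.83), TNF (0.82) and CCND1, cyclin D1 (0.82). Outside IL-10 r was -0.0096 for MACROD2, 0.35 for ETV4, 0.15 for TBC1D1, 0.21 for SPRED2 and 0.54 for CCND1. By Spearman's rho over all 26 means CD5, a surface protein of T cells and some B cells, stood first (0.85), then PLK3, a kinase (0.73), while CCND1 stood 6th (0.67), TNF 12th (0.63), ETV4 77th (0.49), TBC1D1 116th (0.45), MACROD2 204th (0.38) and SPRED2 228th (0.37). The r of the last 4 thus rests mainly on the IL-10 means. The lowest r were those of NCOA1, a nuclear receptor coactivator (-0.94), and the histocompatibility genes HLA-B (-0.91) and HLA-DRA (-0.90). All points of these correlations share arrays and experiments, and they are given as a description.

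**Figure D4:**
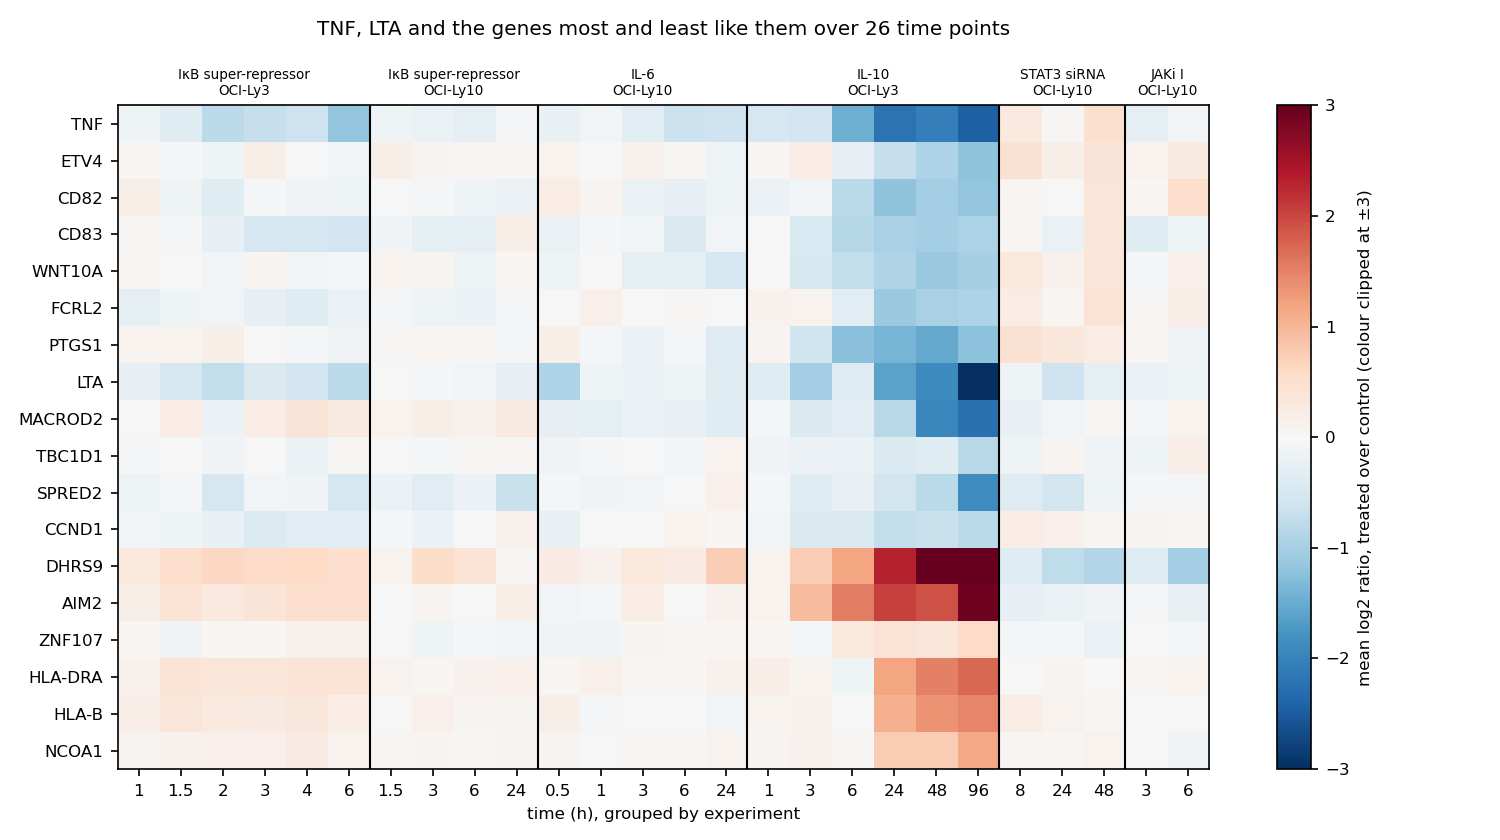
Mean log2 ratio of treated over control cells (colour, clipped at ±3) for TNF, LTA and the genes most and least like them (rows) at the 26 experiment and time means (columns, hours, grouped by experiment). TNF and LTA have their darkest blue at 24 to 96 h of IL-10, where the least like genes in the lower rows are red.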

How the data were processed

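The authors deposited 1 table of Cy5 over Cy3 log ratios (15246 probes, 40 arrays), taken here as log2, with the dyes per the labels. How background, weak spots and scaling were handled is not given in the sources used. Array medians lay between -0.031 and 0.011, 12.6% of cells were blank, and 8862 to 14947 probes had a value on an array. Every array was centred on its median and probes were averaged per gene. With limma 3.58.1 (R 4.3.3) a mean for each of 26 experiment and time groups was fitted over all arrays, so time points with 1 array borrow their spread from the others. Testing required values on 75% or more of a comparison's arrays and at each of its times. The number of arrays limits the precision. Exact permutation tests used Python 3.11.15. The members, lists and tests were chosen with earlier results of these data known. Named list genes are up to 4 called genes per list and experiment with the largest mean and 1 sign on every measured array, besides LTB, TNFRSF1A, TNFRSF1B, LTBR and TNFRSF14, and the 6 most and 3 least like genes. Others were named after seeing their values. Replicate numbers were read as pairing arrays where same-numbered arrays deviated together at every pair of times. This held for IL-6 (r of 0.19 to 0.23) and IL-10 (0.39 to 0.59) and not for the super-repressor in OCI-Ly3 (-0.37 to 0.34). The main fits had no replicate term and so ignore any pairing. The alternative with a replicate block had a term for each experiment with numbered pairs at 2 or more times, also for the super-repressor in OCI-Ly3. STAT3 siRNA and the inhibitor had 2 numbered times, too few to tell. Promoter sequences are from RefSeq (GRCh38.p14), where both genes matched by symbol, and 4 probes with several symbols and 5073 with none were left out of gene tests.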

Additional observations from a re-analysis of the deposited data

Results flagged for a closer look

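Both genes differed between later and earlier times of the same IL-10 treatment of OCI-Ly3, by a test of the difference itself. For TNF the mean of 24, 48 and 96 h minus that of 1, 3 and 6 h was -1.38 (limma, adjusted p = 3.10e-08), and it kept its call under every alternative run for it, with an adjusted p of at most 0.00887. For LTA the difference was -1.62 (adjusted p = 0.00223), which missed the threshold under 2 alternatives given in the report. The 48 and 96 h arrays form a run of their own, so for them time and run cannot be told apart. Within the runs that hold both early times and 24 h, the 24 h array had the lowest TNF value in each (-2.30 and -2.12). For LTA the 24 h array was the lowest in one run (-2.64) but not in the other (-0.56, against -0.70 at 6 h).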

How the results depend on the processing

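In these fits TNF kept its sign and call with IL-10, with the super-repressor in OCI-Ly3 and between late and early IL-10 times under every alternative run (-1.94 to -0.88, -0.97 to -0.74 and -1.90 to -0.59 in turn), as did LTA with IL-10 (-1.57 to -1.05). The fits differ by centring, spread, probe summary, minimum share of arrays, blocks, weights, arrays used and single probes. The weights were estimated around 1 mean per experiment, so they take change over time as spread of an array. Causes were not tested. Over the 14 comparisons of each gene the replicate number as a block changed 1 call, TNF with STAT3 siRNA (0.25, adjusted p = 0.0428), where the numbers of 2 pairs are only a hint. TNF with STAT3 siRNA also passed with the median of probes (0.32), array weights (0.34), probe 17500_1 (0.41) or 25238_1 (0.43) alone, and without 24423_1 (0.30). TNF with IL-6 missed the threshold with a variance trend on the mean log ratio (-0.41) and by 25238_1 alone (-0.20). LTA with the super-repressor in OCI-Ly3 missed it with a trend (-0.63), the run block (-0.66) and 25205_1 alone (-0.21), and leaving out 1 array gave -0.74 to -0.52. The late minus early difference of TNF with the super-repressor passed with the median of probes (-0.55), the run block (-0.47), weights (-0.50), 25238_1 alone (-0.71) and without 24423_1 (-0.51), and that of LTA turned to 0.31 by 25205_1 alone. With IL-6 the same difference of TNF passed by 28018_1 alone (-0.79). LTA late minus early with IL-10 missed the threshold on its own arrays (-1.62), and leaving out 1 array gave -1.97 to -1.17. The difference of TNF between the lines passed with weights (-0.55), and that of IL-10 minus IL-6 missed the threshold by 24423_1 alone (-0.24). Signs turned for uncalled values of TNF in OCI-Ly10 with the super-repressor (28018_1, 0.049) and the inhibitor (35061_1, 0.050), for IL-10 minus the super-repressor in OCI-Ly3 with arrays scaled (0.049), and for the inhibitor minus IL-6 (25238_1, -0.079). The inhibitor minus the super-repressor turned for TNF by 17500_1 (-0.046), by 28018_1 (-0.20) and without 24423_1 (-0.0020), and the inhibitor minus IL-6 for LTA uncentred (-0.0014) and with weights (-0.0066). Leaving out 1 array spanned 0 for LTA late minus early with IL-6 (-0.10 to 0.38) and the super-repressor (-0.40 to 0.040), IL-10 minus the super-repressor (-0.25 to 0.13), the inhibitor (-0.37 to 0.045), the inhibitor minus IL-6 (-0.20 to 0.21) and minus the super-repressor (-0.30 to 0.12), and for TNF in the last (-0.054 to 0.19). It gave -0.89 to -0.37 for LTA in IL-10 minus IL-6, and r between the genes of 0.29 to 0.91 with the super-repressor and -0.41 to 0.33 with IL-6. Counts of genes called moved more. With the super-repressor, the 616 of OCI-Ly3 became 1105 (replicate block), 103 (run block), 2091 (weights), 368 (own arrays) and 269 to 957 (1 array left out). The 24 of OCI-Ly10 became 238 (scaled), 39 (replicate block), 5 (run block), 222 (weights) and 1 to 17. For IL-6 the 150 became 455 (scaled), 314 (replicate block), 32 (run block), 450 (weights), 71 (own arrays) and 93 to 147. For IL-10 the 1548 became 1029 (weights) and 1031 (own arrays). For STAT3 siRNA the 144 became 83 (scaled), 417 (replicate block), 48 (run block), 869 (weights), 0 (own arrays, limma, 619 at an unadjusted p under 0.05) and 21 to 106. For the inhibitor the 146 became 232 (scaled), 259 (replicate block), 77 (run block), 243 (weights), 12 (own arrays) and 44 to 160. OCI-Ly10 with the super-repressor, with 1 array a time, has no fit on its own arrays. The number of arrays limits the precision, and without intensities signal over background is unknown.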
